A study of Caenorhabditis elegans with 2 samples.

Results

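MicroRNA genes encode short RNAs that silence messenger RNAs. A primary transcript is trimmed to a hairpin by Drosha and its partner Pasha, the hairpin is cut by Dicer, and an Argonaute protein carries the mature strand to its targets. Bases 2 to 8 of that strand, the seed, do most of the pairing, so genes that share a seed form a family. In Caenorhabditis elegans such families time larval stages (lin-4, let-7) and are needed in the embryo (the mir-35 and mir-51 families). Binding of LIN-54 was read out here at all 261 nuclear genes that the Ensembl release 115 annotation types as miRNA, of 46890 nuclear genes in all. LIN-54 is a DNA-binding subunit of DREAM, a complex with E2F and Rb-like proteins known for holding down cell cycle genes.

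The data are ChIP-seq peak lists (chromatin immunoprecipitation and sequencing) from whole, mixed-sex young adults, 65 hours old, synchronised by starving newly hatched larvae. The strain, OP743, carries unc-119(tm4063) and the transgene wgIs743, a fosmid with lin-54 joined to TY1, EGFP and 3xFLAG tags plus unc-119(+). The labels name no change at the lin-54 locus itself, and chromatin was precipitated through GFP. Both biological replicates, with 1 library each, form 1 group, so there is no contrast between conditions. In whole animals, germline and body cells cannot be told apart. The authors' optimal list after their irreproducible discovery rate (IDR) procedure held 3449 peaks. Lists of 30000 relaxed candidate regions each were deposited for replicate 1, replicate 2 and the pooled replicates. Read depth is unknown. A gene counted when a peak summit lay between 1000 bp upstream of its 5′ end and 200 bp past its 3′ end.

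LIN-54 summits of the IDR list lay at 37 of 261 miRNA genes (14.2%, Wilson 95% interval 10.5% to 18.9%). The same rule gave 10.6% of all nuclear genes and 17.7% of protein-coding genes. The share for miRNA genes was between these backgrounds and is not in itself a result about miRNA genes. The background of all nuclear genes includes 15363 piRNA genes, of which only 1.07% had an IDR summit, so it is a low one. The place of the miRNA share turned with the rule. With 200 bp on either side it was 4.60%, below 7.47% of all nuclear genes and 12.2% of coding genes. With each summit given to the nearest 5′ end of any gene it was 4.21%, below 5.90% and 10.1% in the same order. Coding genes are longer and so have longer windows. In windows that ended 300 bp past the 5′ end for every gene, the miRNA share of 14.2% was above the 8.83% of all nuclear genes. It was near the 13.6% of protein-coding genes, which became 14.3% when the 5′ end of any coding transcript counted. Neighbouring miRNA genes share windows: merged where they lay on the same strand within 1 kb, the 261 genes formed 227 loci, of which 25 (11.0%, 7.57% to 15.8%) had an IDR summit. These intervals cover counting error over genes alone.

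**Figure D1:**
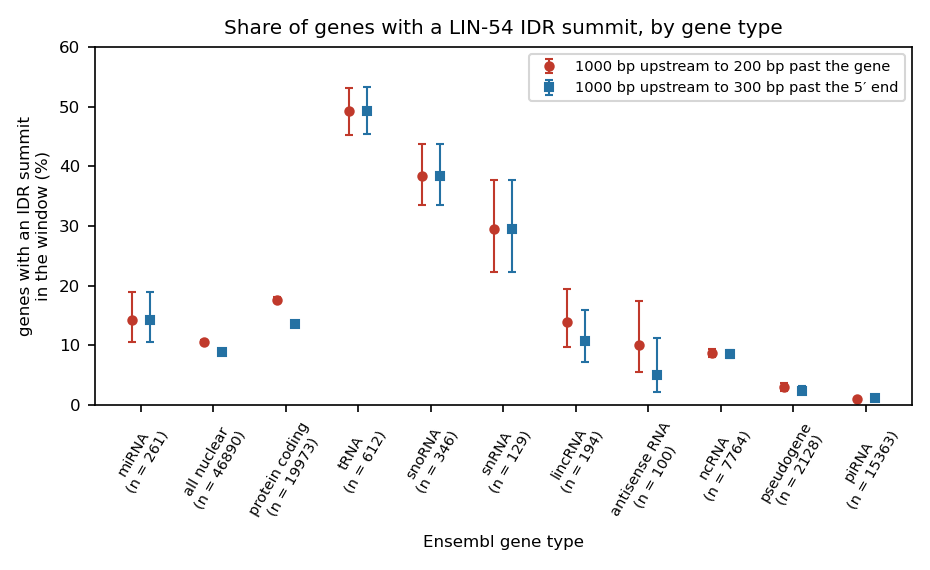
Percentage of genes of each Ensembl type (horizontal axis, with the number of genes) that had an IDR summit in the window, with Wilson 95% intervals, for 2 windows. The miRNA share of 14.2% was near that of coding genes, and tRNA, snoRNA and snRNA genes stood at 49.2%, 38.4% and 29.5% in the window that spans the gene.

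Of 46 seeds shared by several miRNA genes, 9 had a member with an IDR summit, and the 3 with several such members are shown here because they hold 17 of the 37 genes. They were picked for these counts, and clustered genes share 1 summit: by locus the counts were 1 of 2 for mir-35, 4 of 4 for mir-51 and 1 of 2 for mir-64. With summits given to nearest 5′ ends only, 0 genes of the mir-35 cluster and 1 of the mir-51 family were counted. The sequences are the mature strands that carry the shared seed, 5′ to 3′, from the RefSeq annotation of WBcel235, with the seed in capitals. In the mir-35 family, 7 of 8 genes had an IDR summit, all in 1 cluster on chromosome II, and mir-42, on the same chromosome, had none.
mir-35: uCACCGGGuggaaacuagcagu
mir-36: uCACCGGGugaaaauucgcaug
mir-37: uCACCGGGugaacacuugcagu
mir-38: uCACCGGGagaaaaacuggagu
mir-39: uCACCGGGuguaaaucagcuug
mir-40: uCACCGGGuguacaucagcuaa
mir-41: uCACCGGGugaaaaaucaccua
mir-42: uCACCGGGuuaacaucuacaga

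In the mir-51 family, 6 of 6 genes had an IDR summit, at 4 loci on chromosomes IV and X. The count of loci depends on the merging limit of 1 kb. The genes mir-51 and mir-53 are neighbours on 1 strand of IV, and merging over gaps up to 10 kb joins them. With that limit 23 miRNA loci in all had an IDR summit, against 25. The shared seed sits on the 5′ arm of the hairpin in mir-51, mir-52 and mir-53 and on the 3′ arm in mir-54, mir-55 and mir-56.
mir-51: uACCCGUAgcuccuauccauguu
mir-52: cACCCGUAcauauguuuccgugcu
mir-53: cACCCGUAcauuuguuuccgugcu
mir-54: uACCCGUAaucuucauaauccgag
mir-55: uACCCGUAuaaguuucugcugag
mir-56: uACCCGUAauguuuccgcugag

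In the mir-64 family, 4 of 5 genes had an IDR summit, all in 1 cluster on chromosome III. The remaining gene, mir-63 on X, had no summit in any of the 4 lists. Mature strands of some of the family's genes are shown.
mir-229: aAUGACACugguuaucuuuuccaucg
mir-64: uAUGACACugaagcguuaccgaa
mir-66: cAUGACACugauuagggauguga
mir-63: uAUGACACugaagcgaguuggaaa

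The mir-35 cluster carried the strongest miRNA peak that lay in no coding promoter window, meaning from 1000 bp before to 300 bp after any coding transcript's 5′ end. The cluster is needed for embryonic development and its RNAs are abundant in oocytes and early embryos. Its 7 hairpins lie within an intron of the coding gene Y62F5A.9, on the opposite strand. The peak (II, 11537279 to 11537506, signal 358, rank 654 of 3449) had its summit 216 bp upstream of mir-35. In replicate 1 the region had a signal of 185 (rank 609 of that list) and in replicate 2 of 170 (rank 724). It thus ranked within the strongest 724 regions of either replicate, and the same summit counts for all 7 genes, lying 916 bp upstream of mir-41. A further, much weaker peak lay 279 bp downstream of the 5′ end of mir-41 (signal 103, rank 3255). Its replicate signals, each from the strongest overlapping region, were 61.2 (rank 2890) and 39.8 (rank 5197). That replicate 2 region overlapped the peak only in part, with its summit 1234 bp past the 5′ end of mir-35, against 979 bp for the peak. A nearer replicate 2 region, with its summit at 1022 bp, had a signal of 39.5. The summit of the peak also lay in the promoter window of Y62F5A.9. The mir-42 to mir-44 cluster had no summit in any list.

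The mir-51 family is needed in the embryo, where its loss leaves the pharynx detached, and each of its loci had a peak outside coding promoter windows. At mir-51 the peak had a signal of 312 (IV, 11026094 to 11026326, rank 797), with 157 in replicate 1 (rank 787) and 148 in replicate 2 (rank 894). Its summit was 85 bp upstream of the gene. The neighbouring mir-53 had a weaker peak 100 bp upstream (IV, 11027623 to 11027958, signal 131, rank 2405), with 73.3 in replicate 1 and 59.3 in replicate 2.

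At mir-52, elsewhere on IV, a pair of peaks lay 780 bp (IV, 14033060 to 14033395, signal 183, rank 1652) and 161 bp upstream (IV, 14033765 to 14033939, signal 179, rank 1694). The farther had signals of 103 in replicate 1 and 87.0 in replicate 2, and the nearer 113 and 80.2. Which of the pair was higher thus changed between the replicates. The mir-54 to mir-56 cluster lies in an intron of F09A5.3, on the opposite strand. It had a summit 226 bp upstream of mir-54 (X, 13145247 to 13145379, signal 213, rank 1362), with 112 in replicate 1 (rank 1278) and 105 in replicate 2 (rank 1448). This was the only X-linked miRNA locus of 58 with an IDR summit. On the other strand, mir-55b had no IDR summit. Its strongest pooled summit lay at -647 bp from its 5′ end (negative is upstream, signal 76.6, rank 4737). The strongest in replicate 1 lay close by, at -618 bp (67.8). The only summit of replicate 2 in the window lay elsewhere, at -215 bp (31.1).

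The mir-229 to mir-66 cluster lies in an intron of gcn-1, a gene for a regulator of translation, on the same strand. Its summit lay 265 bp upstream of mir-229, the outermost gene (III, 2172169 to 2172341, signal 214, rank 1355), and 921 bp upstream of mir-66. Signals were 115 in replicate 1 (rank 1234) and 104 in replicate 2 (rank 1456). At each of the mir-35, mir-54 and mir-229 clusters the strongest peak thus lay just before the outermost hairpin, within a range of 216 to 265 bp.

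**Figure D2:**
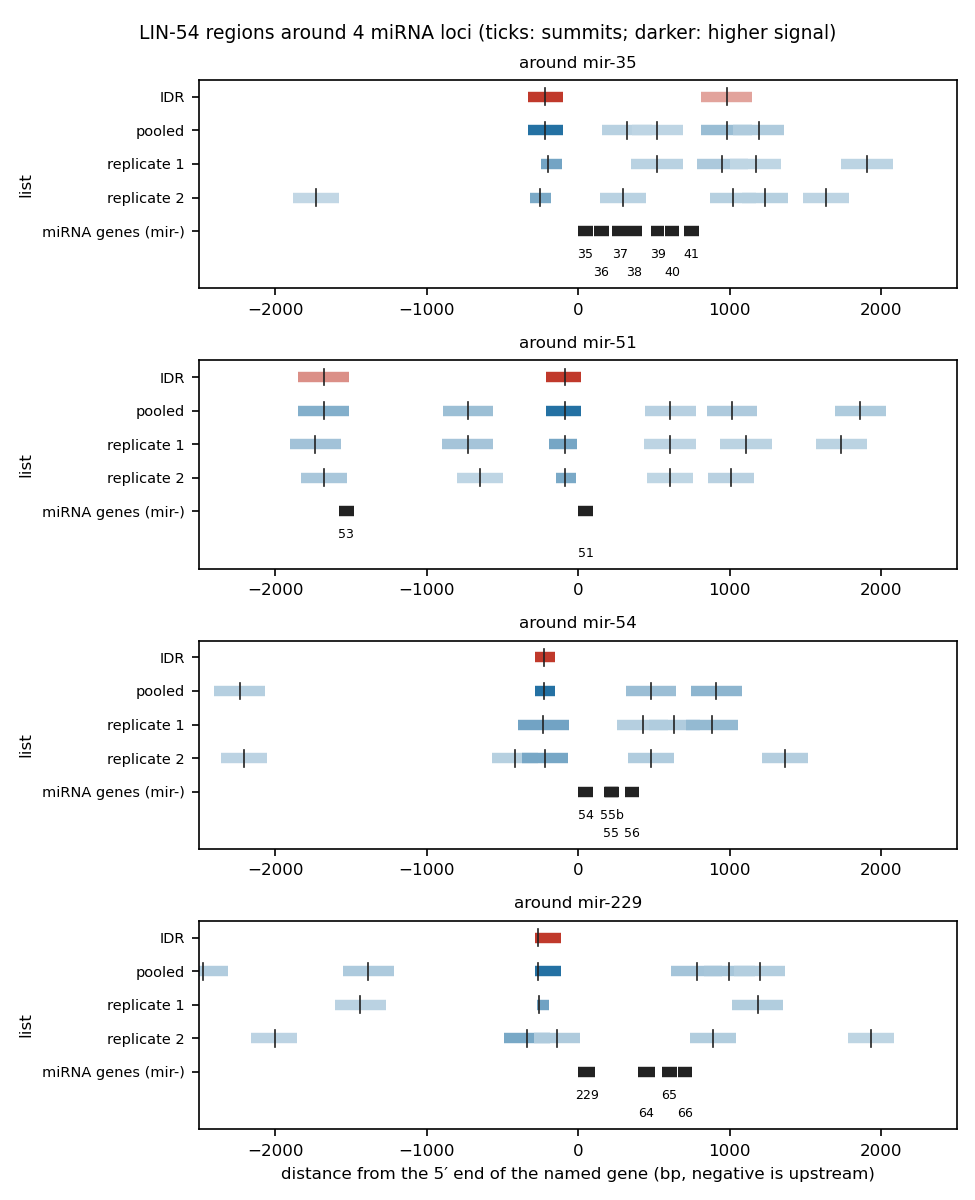
Regions of the 4 lists (bars, darker with higher signal within a panel) and their summits (ticks) against distance in bp from the 5′ end of mir-35, mir-51, mir-54 or mir-229, with the miRNA genes in black. In each panel the strongest region in every list lies just upstream of the named gene, at 216, 85, 226 and 265 bp in the IDR list.

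The reference sequence under these summits is shown because these 4 peaks lie at the families above and outside coding promoter windows. Each line gives 151 bases of WBcel235, plus strand, centred on the summit. Capitals mark any match to the elements bound by DREAM. These were the CHR element (named for a homology region in cell cycle genes), TTCGAA or TTTGAA, and the E2F site, TTCCCGC or TTCGCGC or TTGCCGC or TTGGCGC, searched on both strands. The windows are chrII:11537317-11537467 (mir-35), chrIV:11026122-11026272 (mir-51), chrX:13145245-13145395 (mir-54) and chrIII:2172112-2172262 (mir-229).
mir-35: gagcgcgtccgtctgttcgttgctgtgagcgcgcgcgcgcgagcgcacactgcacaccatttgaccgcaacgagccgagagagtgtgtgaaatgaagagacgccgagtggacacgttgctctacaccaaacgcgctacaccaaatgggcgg
mir-51: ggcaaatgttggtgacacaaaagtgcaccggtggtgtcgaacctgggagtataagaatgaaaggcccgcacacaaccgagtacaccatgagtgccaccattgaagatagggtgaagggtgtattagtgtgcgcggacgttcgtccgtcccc
mir-54: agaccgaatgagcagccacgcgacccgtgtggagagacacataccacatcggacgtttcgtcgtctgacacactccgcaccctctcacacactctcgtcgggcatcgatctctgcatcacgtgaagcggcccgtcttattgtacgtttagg
mir-229: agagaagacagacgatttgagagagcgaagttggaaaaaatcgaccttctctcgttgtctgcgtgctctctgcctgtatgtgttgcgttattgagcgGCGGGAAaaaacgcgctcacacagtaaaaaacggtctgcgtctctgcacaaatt
Only the mir-229 window held a match, an E2F site on the minus strand (III, 2172209 to 2172215) within 50 bp of the summit.

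The elements were looked for within 50 bp of all summits, by the position of their centre. TTCGAA reads the same on both strands, matches to the 2 elements may overlap, and a peak counted once for each element. Of the 28 distinct IDR peaks at miRNA genes, 4 had a CHR element (14.3%, 5.70% to 31.5%), against 34.5% of all IDR peaks. An E2F site was present at 4 (14.3%, 5.70% to 31.5%), against 17.5% of all IDR peaks. The pooled regions ranked below the IDR list held a CHR element in 27.2% and an E2F site in 6.08%. CHR elements lay at mir-5549, mir-2214, mir-2207 and mir-2216, and E2F sites at mir-229, mir-61, mir-253 and mir-4932. The remaining 20 peaks had neither, which says only that these letters were not in these windows. With the search narrowed to 25 bp, 0 of 28 peaks had a CHR element, against 15.8% of all IDR peaks, and with 100 bp 9 did (32.1%), against 55.0%. Without replicate 1, in the 3449 strongest regions of replicate 2, 5 of 26 summits at miRNA genes had a CHR element and 0 an E2F site. Each share rests on few peaks, and no test was made.

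The peak at the mir-61 and mir-250 pair is shown for its E2F match. In vulval precursor cells mir-61 is known to repress vav-1. The peak (V, 11770258 to 11770426, signal 259, rank 1047) had signals of 133 in replicate 1 (rank 1028) and 134 in replicate 2 (rank 1032), so it ranked alike in both. Its summit lay 164 bp upstream of mir-61 and also 147 bp upstream of the coding gene F55A11.4, so position does not give it to either. The E2F match (V, 11770363 to 11770369, minus strand) was centred 46.0 bp from the summit, and a CHR element follows it outside the 50 bp limit, in chrV:11770245-11770395 (plus strand, matches in capitals).
mir-61: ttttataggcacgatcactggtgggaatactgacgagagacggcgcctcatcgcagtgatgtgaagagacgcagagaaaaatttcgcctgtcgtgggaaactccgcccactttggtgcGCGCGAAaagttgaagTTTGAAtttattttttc

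Most peaks at miRNA genes lay where a coding gene could also claim them. Of the 28 peaks, 17 (60.7%, 42.4% to 76.4%) had the summit in a coding promoter window, against 66.1% of all IDR peaks. For 16 of the 37 miRNA genes every IDR summit was of this kind, and 21 genes (8.05% of 261) had a summit in no coding promoter window. These 21 genes came from only 11 peaks. A shared summit gave 7 of them at the mir-35 cluster, 4 at the mir-229 cluster and 3 at the mir-54 cluster. The same count was not made for all nuclear genes, so the 8.05% has no background beside it. The median signal was 181 at miRNA genes, between 98.4 and 1186, and 177 over all IDR peaks, between 98.2 and 7882. Peaks outside coding promoter windows were of middle height, with a median of 196 and a range of 131 to 358. The strongest 3 of the 28 lay inside coding promoter windows. The mir-5549 peak (signal 1186, rank 71, 573 in replicate 1 and 621 in replicate 2) lay 18 bp upstream of mir-5549, but also 150 bp upstream of rfc-4, a clamp loader gene, and 391 bp upstream of eef-1A.1, an elongation factor gene.

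The stronger mir-354 peak (signal 1023, rank 99, 436 in replicate 1 and 579 in replicate 2) lay 855 bp upstream of that gene, but 154 bp upstream of ekl-4 and 243 bp upstream of rps-20, a ribosomal protein gene. Its second peak (signal 138, 63.7 in replicate 1 and 91.3 in replicate 2) was 258 bp downstream of the 5′ end, in the window of Y105E8A.14. The mir-4932 peak (signal 544, rank 345, 216 in replicate 1 and 321 in replicate 2) lay 97 bp past the 5′ end. It was 48 bp upstream of klp-16, a kinesin gene, and 168 bp upstream of smn-1, the survival motor neuron gene. Other genes of this kind were mir-5595 (signal 246, 109 in replicate 1 and 125 in replicate 2), in an intron of nurf-1, a chromatin remodeller gene, and mir-4934 (signal 215, 116 in replicate 1 and 97.1 in replicate 2), beside mtr-4, a nuclear RNA helicase gene.

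Peaks outside coding promoter windows also lay at 4 single miRNA genes not yet described. At mir-2214, in an intron of B0361.11, the summit was 19 bp upstream (III, 7278604 to 7278782, signal 305, rank 825), with 151 in replicate 1 and 140 in replicate 2. At mir-80, whose family is related by sequence to bantam of Drosophila, it was 213 bp upstream (III, 8865412 to 8865747, signal 196, rank 1501), with 99.9 in replicate 1 and 101 in replicate 2. The family genes mir-81 and mir-82, on X, had no IDR summit, and mir-82 had a region in replicate 1 alone (signal 21.8, rank 15783). At mir-71, a gene that extends lifespan, the summit lay 257 bp upstream in an intron of ppfr-1 (signal 131, rank 2402), with 57.3 in replicate 1 and 66.4 in replicate 2. At mir-90 it lay 304 bp upstream in an intron of K01F9.2 (signal 138, rank 2264), with 70.8 in replicate 1 and 65.1 in replicate 2.

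**Figure D3:**
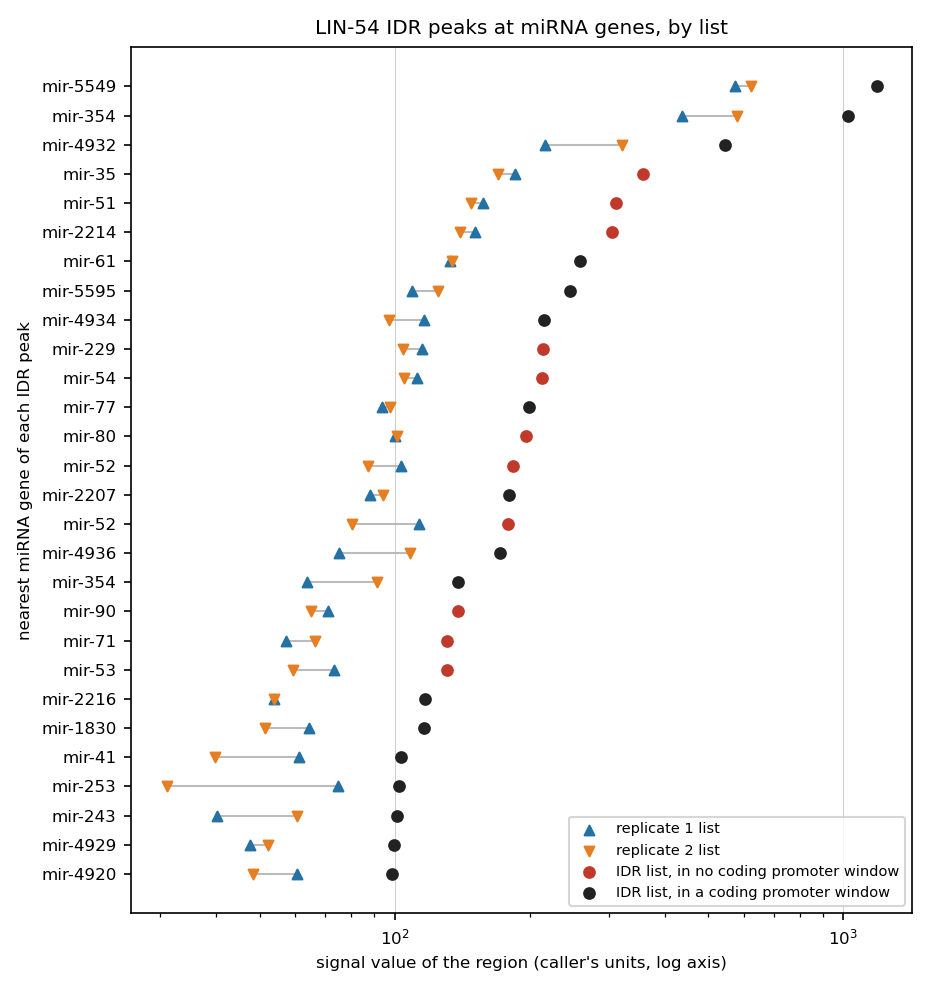
Signal value (log axis, caller's units) of each of the 28 IDR peaks at miRNA genes, one per line from strong to weak, in the IDR list (circles) and in the replicate lists (triangles). Signals come from separate lists and are comparable within a list only. Red circles, between 131 and 358, mark the 11 peaks in no coding promoter window, and the widest gap between replicates is at mir-253.

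The replicates both listed a region at every one of the 28 peaks, a match that the IDR procedure selects for. Of these peaks, 22 were among the 3449 strongest regions of both replicates, 5 of exactly 1 replicate and 1, at mir-4929, of neither. The signal in replicate 1 divided by that in replicate 2 had a median of 1.03 and lay between 0.664 at mir-243 and 2.41 at mir-253, a description only, since each list has its own scale. The mir-253 peak (signal 102) had 74.7 in replicate 1 (rank 2200) and 31.0 in replicate 2 (rank 8084). The mir-243 peak (signal 101) had 40.1 in replicate 1 (rank 5440) and 60.4 in replicate 2 (rank 2877). All 6 peaks outside the strongest set of at least 1 replicate had an IDR signal of 116 or less, and each lay in a coding promoter window.

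Over all 261 genes, 90 had a summit in both replicate lists, 19 in replicate 1 alone, 19 in replicate 2 alone and 133 in neither. The same split is not given for all nuclear genes, and genes of a cluster share regions. In the relaxed lists, which hold candidate regions and background, shares were 43.3% for miRNA genes in the pooled list, 41.8% in replicate 1 and 41.8% in replicate 2. For all nuclear genes, piRNA genes included, they were 30.4%, 33.8% and 32.7% in the same lists. For protein-coding genes they were 47.0%, 51.5% and 50.6%, so with this window the miRNA shares were again between these backgrounds. In windows that ended 300 bp past the 5′ end for every gene, the miRNA shares were unchanged and lay above both backgrounds in each list. There the shares were 36.0%, 37.7% and 37.6% for protein-coding genes and 25.5%, 27.6% and 26.9% for all nuclear genes.

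Summits lay mainly upstream of the hairpins. Of the 28 peaks, 24 were upstream of the nearest miRNA gene's 5′ end and 20 of these within 400 bp. The median position was -221 bp (negative is upstream), with quartiles at -313 and -82.0 bp and extremes at -855 and 279 bp. The window itself reaches farther upstream than downstream. The 5′ end of an annotated hairpin is not that of its primary transcript, so these distances are not distances to a transcription start. For 11 peaks the nearest annotated 5′ end of any gene was that of a miRNA gene. At mir-35, mir-51, mir-52, mir-54 and mir-71 the nearest 5′ end was that of an annotated ncRNA gene: Y62F5A.16 at mir-35, F36H1.17 at mir-51, F09A5.11 at mir-54, F16A11.8 at mir-71 and a pair of Y37A1B genes at mir-52.

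**Figure D4:**
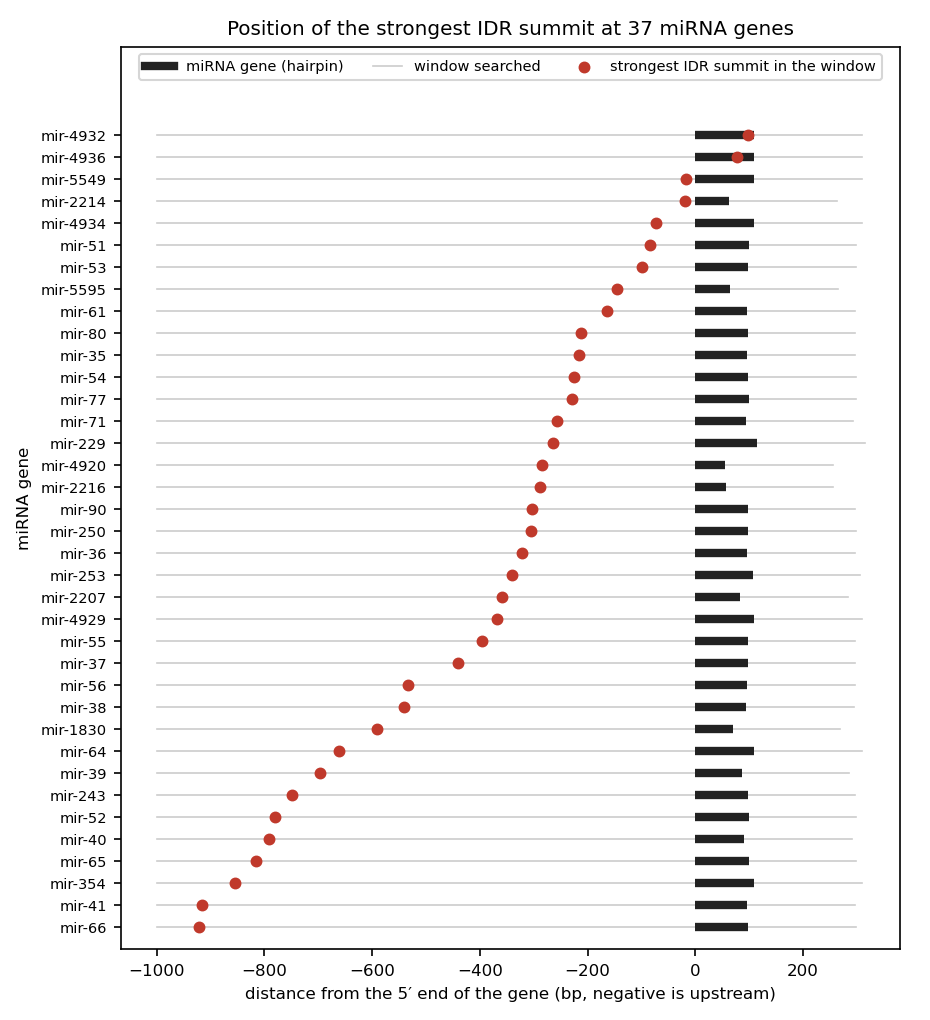
Distance in bp of the strongest IDR summit (red) from the 5′ end of each of the 37 miRNA genes, with the gene in black and the searched window in grey. Genes of a cluster share a summit, so their distances step from 216 bp at mir-35 to 916 bp at mir-41, and most summits lie upstream of the hairpin.

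Shares by the place of the miRNA gene stand beside 14.2% of all miRNA genes and 10.6% of all nuclear genes. Of miRNA genes between coding genes, 12 of 152 had an IDR summit (7.89%, 4.57% to 13.3%). In introns of a coding gene on the opposite strand it was 11 of 30 (36.7%, 21.9% to 54.5%) and on the same strand 13 of 68 (19.1%). The count on the opposite strand came mostly from mir-35 to mir-41 and mir-54 to mir-56. By locus it was 3 of 21, against 10 of 64 on the same strand and 11 of 132 between coding genes. The opposite strand thus did not stand above the same strand by locus, and over all loci it was 25 of 227 (11.0%). Among genes within exons, mir-354 alone had an IDR summit, of 6 on the same strand and 2 on the opposite strand.

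By chromosome, IDR summits lay at 9 of 27 miRNA genes on III (33.3%, 18.6% to 52.2%), 13 of 49 on II (26.5%, 16.2% to 40.3%), 6 of 50 on IV and 3 of 28 on V (10.7%). Among all nuclear genes the shares were about 25% on III, 16.4% on II, 4.88% on IV and 9.64% on V. Among coding genes they were 28.7% on III, 18.3% on II, 18.6% on IV and 11.3% on V. On III both backgrounds lay within the interval of the miRNA share. On X, which holds 74 miRNA genes, it was 3 (4.05%, 1.39% to 11.3%), all in the mir-54 locus, against 7.01% of all X-linked genes and 5.93% of X-linked coding genes. On chromosome I it was 3 of 33 (9.09%, 3.14% to 23.6%), against 24.0% of all genes and 28.0% of coding genes there. By locus the miRNA counts were 6 of 23 on III, 7 of 41 on II, 6 of 47 on IV and 2 of 25 on V. On II, 7 of the 13 genes were mir-35 to mir-41, which share 1 summit.

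The heterochronic lin-4 and let-7 families, which time larval development, had no IDR summit. Of the let-7 family (let-7, mir-48, mir-84, mir-241 and mir-795, which share the seed GAGGUAG), let-7 and mir-795 had no summit in any list. The other members had relaxed regions, in the pooled list mir-241 with a signal of 79.8 (rank 4460), mir-48 with 42.8 (rank 12291) and mir-84 with 34.2 (rank 17328). The strongest signals in their windows in replicates 1 and 2 were 31.0 and 49.8 at mir-241, 26.3 and 25.9 at mir-48, and 16.5 and 17.8 at mir-84. At mir-48 these summits lay at -106 bp and 258 bp from the 5′ end and the pooled summit at 126 bp, so they may be different regions. At lin-4 a pooled region lay 352 bp upstream (signal 86.2, rank 4050), with 43.2 in replicate 1 and 38.1 in replicate 2. It was the third strongest of the 76 genes with a pooled but no IDR summit, after mir-2213 (96.9, rank 3502) and mir-1829b (88.1, rank 3925). The weakest miRNA peak inside the IDR list was at mir-4920 (98.4, rank 3436). At mir-237, which shares the lin-4 seed, only the pooled list held a region (25.9, rank 24885).

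Other well-studied genes were likewise outside the IDR list. The muscle gene mir-1 had a region in replicate 2 alone (17.6, rank 21637) and the neuronal mir-124 in replicate 1 alone (21.5, rank 16109). The pooled list held mir-34 (69.4, rank 5463), mir-58a (74.7, rank 4917), mir-70 (37.1, rank 15345) and mir-45 (30.3, rank 20587). At mir-228 replicate 1 alone held a region (23.2, rank 14252). No list held a summit at lsy-6, which sets the asymmetry of a pair of taste neurons, or at mir-57 and mir-246.

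**Figure D5:**
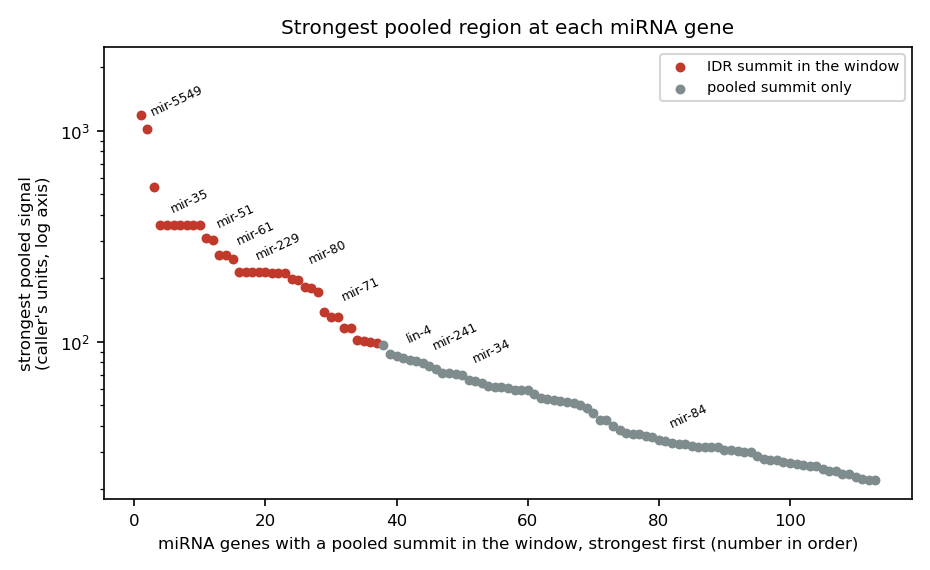
Strongest pooled signal (log axis, caller's units) in the window of each of the 113 miRNA genes with a pooled summit, from strong to weak. The 37 genes with an IDR summit (red) run from 1186 down to 98.4, and lin-4, mir-241, mir-34 and mir-84 lie below them.

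The protein genes of the miRNA pathway were read in promoter windows of 1000 bp upstream to 300 bp downstream, where 14.3% of coding genes had an IDR summit. Of 27 genes for miRNA processing and function, 15 had one (55.6%, 37.3% to 72.4%), a description with no test. This list and that of heterochronic and target genes below were chosen with earlier results of these data known. For 8 of the 15 the strongest such peak also lay in another coding gene's promoter window. The 15 genes included pash-1, the Drosha partner (signal 935, 450 in replicate 1 and 483 in replicate 2), whose peak was not shared in this way. They also included alg-5, an Argonaute gene (674, 381 and 314 in replicates 1 and 2), whose peak is shared with the histone genes his-67 and his-68. The strongest was at vig-1, a gene for an Argonaute-associated protein (2630, 1311 in replicate 1 and 1312 in replicate 2). The core genes drsh-1 (Drosha), dcr-1 (Dicer), alg-1 and alg-2 (the main miRNA Argonautes) had no IDR summit, with pooled signals of 53.4, 25.9, 23.9 and 67.3 in that order.

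Of 25 genes in a list of heterochronic genes and other known miRNA targets, 4 had an IDR summit (16.0%), a share near the background. They were lin-28 (184), nhl-2 (876), lin-46 (237) and cdc-25.1 (130), of which lin-28 and nhl-2 also stand in the processing list. For 2 of the 4 the strongest peak also lay in another coding gene's promoter window. These were nhl-2 (shared with tag-340) and lin-46 (shared with R186.3 and R186.8). The target lin-14 of lin-4 had a pooled region just below the IDR list (96.3, rank 3527), and no list held a summit at hbl-1, a let-7 family target.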

How the data were processed

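The authors made relaxed region lists, 1 per replicate and 1 pooled, as input to an IDR procedure in build ce11 (WBcel235), per the text files deposited with the samples. The aligner, the caller and the IDR cutoff are not given by the sources used. The deposited signal value was used to rank regions within a list, and its formula is unknown. The deposited summit offset gave the summit position. The deposited −log10 q value had 1 maximum in most strong regions and was not used.

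Summits, genes and windows were joined in Python 3.11.15 (numpy 2.4.6, matplotlib 3.10.9) with Ensembl release 115. Ensembl names lose the prefix cel-, and let-7 took its RefSeq name by gene ID. Sequences came from the RefSeq genome and annotation of WBcel235, which had mature strands for 260 genes. Not every mature strand is reported here. The search rules were tested on simulated data. The members, lists and motifs were chosen with earlier results of these data known. Named are the 20 genes with the strongest IDR signal, a list of well-studied miRNA genes, coding genes sharing a summit, and pathway genes. Further names (mir-2213, mir-1829b, mir-55b, mir-63, mir-77, mir-90, mir-243, mir-253, mir-2207, mir-2216, mir-4920, mir-4929) were chosen after their values were seen. Of the pathway names, ntl-1 and cdk-6 matched no coding gene. Shares have Wilson 95% intervals, and no test was made, since the samples form 1 group. The labels call the samples biological replicates and give each its own biosample.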

Additional observations from a re-analysis of the deposited data

How the results depend on the processing

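Against 37 miRNA genes and 4982 nuclear genes with an IDR summit, leaving out a replicate gave 35 to 38 and 4943 to 4966. The choices that mattered were the window and the rule that a summit may count for several genes. With 200 bp on either side and no farther reach, 12 miRNA genes and 12 loci (against 25) had a summit, 43 genes had a region in both replicates (against 90), and 3 shared seeds (against 9), 3 mir-51 family genes (against 6) and 1 mir-35 cluster gene (against 7) were met. The share was then 4.60% of miRNA genes, below the 7.47% of all nuclear genes, so its place beside the background turned. With each summit given only to the nearest 5′ end of any gene, counts were 11 miRNA genes (4.21%), 2765 nuclear genes (5.90%), 4 seeds, 1 mir-51 family gene and 0 mir-35 cluster genes. With 500 bp upstream, 4 mir-35 cluster genes were met. In the stronger 1724 peaks, 2930 nuclear genes and 15 loci had a summit. Of the 28 summits, 8 had either motif, or 2 with the search at 25 bp. Without a replicate the summits at miRNA genes were other sets, and 5 of 26 (without replicate 1) and 7 of 30 (without replicate 2) had either motif. The median position of -221 bp was -188 with 500 bp upstream, -322 with 2000 bp, -46.0 with 200 bp, -188 in the stronger 1724 peaks, -145 for nearest 5′ ends, and -212 to -187 without a replicate. The remaining settings stayed within 1.5 times the counts given, including windows tied to the 5′ end, which were chosen after the data were seen. No paired analysis was possible because the samples form 1 group. Depth was not given, so a gene with no region may have signal that these lists do not show.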

Other observations

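In the sequences under the miRNA summits, 2 short words recurred, and both were chosen after the sequences were seen. On either strand within 75 bp of the summit, GAGACGC was present at 5 of the 28 IDR peaks at miRNA genes (17.9%, 7.88% to 35.6%), at mir-35, mir-61, mir-5595, mir-229 and mir-4920. It was present at 9.45% of all IDR peaks and at 2.98% of pooled regions below the IDR list. The word GCGCTCC was present at 3 (10.7%, 3.71% to 27.2%), at mir-5595, mir-4934 and mir-2207, against 6.93% of all IDR peaks and 1.65% of pooled regions below the list. At least 1 of them lay at 7 of the 28 peaks (12.7% to 43.4%), against 15.5% of all IDR peaks and 4.58% of pooled regions below the list. The interval for miRNA peaks spans the share of all IDR peaks.

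The snoRNA gene T21B4.20 lay within 200 bp of the summit nearest mir-77 (signal 199, 93.5 in replicate 1 and 97.7 in replicate 2), 230 bp upstream of the miRNA gene. No IDR summit at a miRNA gene lay within 200 bp of a tRNA gene, and leaving out summits near tRNA genes left the count of miRNA genes at 37 while that of all nuclear genes became 4300.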
